A study of Rattus norvegicus with 7 samples.

Results

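Peaks of the zinc finger protein YY1 were set against peaks of acetylated histone H3 lysine 27 (H3K27ac) in S16, a rat Schwann cell line grown without treatment. All peaks of both lists were taken apart from those on the mitochondrial genome, which left 38704 YY1 peaks and 99514 H3K27ac peaks of the 283804 peaks in the 6 lists of the series. CUT&RUN was used for YY1, with a nuclease that is brought to the protein by an antibody and releases the DNA it binds, and ChIP-seq for H3K27ac, in which crosslinked fragments are pulled down with an antibody. Beside them stand CUT&RUN lists of NR2F2, TEAD1 and RXRG from S16, and a ChIP-seq list of SREBP1 from wild-type sciatic nerve at postnatal day 15, a tissue that holds other cells besides Schwann cells and was set here against acetylation in S16. The input library of the nerve was not analysed here. Each target was represented by 1 library from 1 line or tissue. The values below therefore carry no replicate error and no test, and the intervals are exact binomial 95% intervals that cover counting error only. Identity markers of the cells were not analysed here, since the lists hold positions only.

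YY1 binds DNA through its zinc fingers at promoters and enhancers, can activate or repress, and is known for joining enhancers to promoters by pairing with itself. In Schwann cells it is known as a regulator of Egr2, the gene of the main transcription factor of myelination. H3K27ac is placed on nucleosomes by the acetyltransferases p300 and CBP and marks active promoters and enhancers. A transcription factor usually sits in the stretch between nucleosomes, so that the mark lies beside the factor rather than under it, and a ChIP-seq peak of the mark spreads over both.

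The deposited lists set limits on what can be seen between the marks. The narrowest H3K27ac peak was 231 bp wide, and 4894 peaks (4.92%) had exactly that width. The smallest gap between neighbouring H3K27ac peaks was 925 bp, 1 bp more than 4 times the smallest width. H3K27ac peaks on both sides of a YY1 peak could therefore be seen as a pair only across at least that distance. For YY1 the narrowest peak was 178 bp and the smallest gap 179 bp. The settings behind these limits are not known here.

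H3K27ac peaks were wider than YY1 peaks. The median YY1 width was 439 bp (quartiles 265 and 671 bp, longest 3052 bp), against 737 bp for H3K27ac (367 and 1233 bp, longest 9902 bp). In the 33447 pairs of a YY1 peak and an H3K27ac peak that share at least 1 bp, the H3K27ac peak was a median 2.43 times as wide as the YY1 peak (quartiles 1.52 and 4.28). It was the narrower of the pair in 1357 cases (4.06%), and 208 YY1 peaks contained a whole H3K27ac peak. Over those pairs the widths of the partners had a Spearman correlation of 0.247, given as a description, since pairs in the same H3K27ac peak share its width. YY1 covered a median 43.8% of the length of an H3K27ac peak that held it.

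Sharing of at least 1 bp with H3K27ac was found for 33445 YY1 peaks, 86.4% of the list (86.1 to 86.8%), and 5259 lay outside. The peaks that shared a base were wider, with a median of 488 bp against 234 bp outside. Acetylated regions that held YY1 were wider too, with a median of 1208 bp (quartiles 816 and 1776 bp) against 532 bp (306 and 962.5 bp) for those without. Both orders held on each of the 21 placed chromosomes. Neither order was particular to YY1. Regions with and without TEAD1 had medians of 1345 and 616 bp, and those with and without SREBP1 1226 and 641 bp. For RXRG these were 939 and 670 bp and for NR2F2 868 and 684 bp. Factor peaks inside and outside had medians of 334 and 222 bp for TEAD1, 348 and 249 bp for NR2F2 and 234 and 164 bp for RXRG. All SREBP1 peaks were 485 bp wide. A wide peak of either list meets the other more readily by its length alone. Near the limit of 1 bp, 238 YY1 peaks shared 1 to 50 bp with H3K27ac and 175 outside peaks ended within 50 bp of one.

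**Figure D1:**
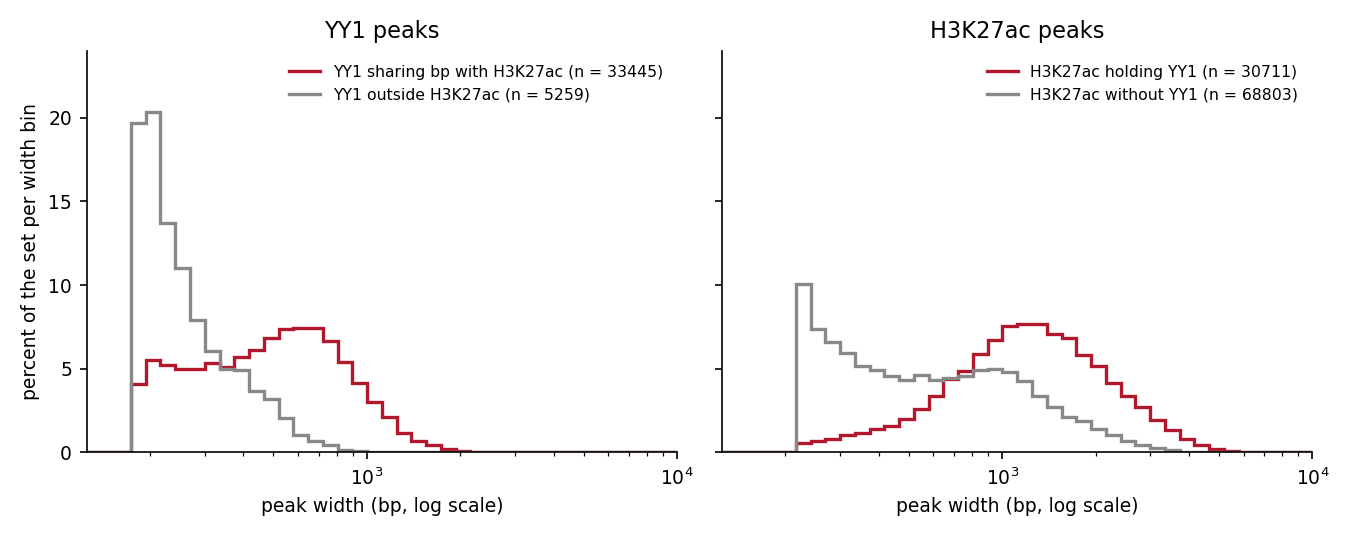
Width of YY1 peaks (left) and of H3K27ac peaks (right) in bp on a log axis, as percent of each set per width bin; red lines show peaks that share at least 1 bp with the other list and grey lines those that do not. In both panels the red set lies to the right, with medians of 488 against 234 bp for YY1 and 1208 against 532 bp for H3K27ac.

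The share of YY1 peaks in H3K27ac rose with YY1 width. It was 57.8% for peaks of 178 to 199 bp, 68.2% for 200 to 249 bp, 86.2% for 300 to 399 bp and 96.9% for 500 to 699 bp. Each of the 2612 YY1 peaks of 1000 bp or more met H3K27ac, and the widest outside it was 989 bp. The median distance of the YY1 midpoint from the H3K27ac centre fell from 46.4% of the way to the edge at 178 to 199 bp to 13.5% at 1500 bp and above. The median width of the acetylated host went from 1051.5 to 2097 bp over the same classes. A YY1 peak nearly as long as its host can only have its midpoint near the centre, and how far the widths set this fall was not tested. The widest YY1 peak, chr14:46855364-46858415 on build rn5 (3052 bp), lay over an H3K27ac peak of 3266 bp and was the only YY1 peak in it. The next were chr16:45989520-45992072 (2553 bp) and chr1:71604043-71606550 (2508 bp), each alone in an H3K27ac peak, of 2907 and 2925 bp. No gene annotation or sequence of build rn5 was used, so that peaks are named by position.

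Seen from the mark, 30.9% of H3K27ac peaks (30711 of 99514) held YY1, and these made up 46.5% of the acetylated length. The same share was 25.5% for NR2F2, 20.5% for RXRG, 19.0% for TEAD1 and 15.0% for nerve SREBP1. Those lists hold 41812, 47935, 26404 and 29435 peaks in that order and differ in peak width. The shares were not adjusted for either. YY1 was rare in the narrowest acetylated regions, with 106 of the 4894 peaks of 231 bp (2.17%) and 8.17% of those of 232 to 500 bp. It was then found in 30.3% at 501 to 1000 bp, 46.1% at 1001 to 1500 bp, 66.7% at 2001 to 3000 bp and 83.3% at 3001 to 5000 bp. Of the 81 regions above 5000 bp, 77 held YY1 (95.1%, 87.8 to 98.6%). The widest without a YY1 peak were chrX:110849665-110856734 (7070 bp), chr2:113934774-113940102 (5329 bp) and chr3:62405318-62410573 (5256 bp). The first met 1 NR2F2 and 1 RXRG peak, the second 1 SREBP1 peak, and the third none of the factor lists.

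Per length, YY1 was nearly constant in acetylated regions above 500 bp. The rate was 0.393 YY1 midpoints per kb of H3K27ac at 501 to 1000 bp, 0.386 at 1001 to 1500 bp, 0.334 at 2001 to 3000 bp and 0.378 above 5000 bp. Below 501 bp it was lower, at 0.200 per kb for 232 to 500 bp and 0.0619 per kb at 231 bp. The nuclear receptor NR2F2 had the opposite course, with its highest rate of 0.527 per kb at 232 to 500 bp and 0.155 per kb at 2001 to 3000 bp. RXRG went from 0.338 per kb at 501 to 1000 bp to 0.122 at 2001 to 3000 bp. TEAD1, through which the coactivators YAP and TAZ reach DNA, went from 0.181 to 0.237 per kb over those classes. The rising share of wide regions with YY1 thus came with a similar number of YY1 peaks for each kb of acetylated DNA.

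**Figure D2:**
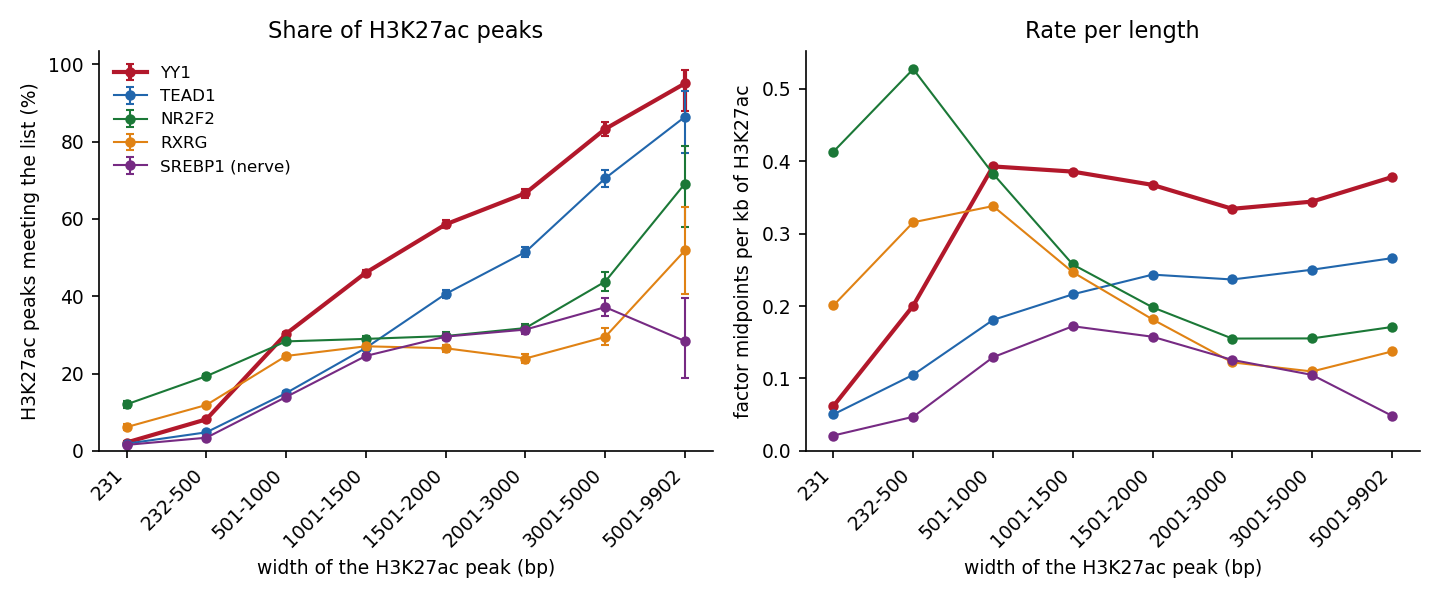
H3K27ac peaks by width class in bp: the percent that share at least 1 bp with each factor list, with exact 95% binomial intervals (left), and the number of factor midpoints per kb of H3K27ac (right). YY1 climbs from 2.17% to 95.1% of regions on the left, while on the right it stays between 0.334 and 0.393 per kb in all classes above 500 bp.

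Most acetylated regions with YY1 held 1 YY1 peak. There were 28244 with 1, 2237 with 2, 197 with 3, 29 with 4, 2 with 5 and 2 with 6. The median H3K27ac width rose with the number, from 1154 bp with 1 to 2137 bp with 2, 3406 bp with 3 and 3845 bp with 4. Regions with 2 or more were 8.03% of those holding YY1 (7.73 to 8.34%), from 1.12% at 501 to 1000 bp to 39.9% at 3001 to 5000 bp. The same share was 10.6% on chromosome 16, the highest, and 6.51% on chromosome 9, the lowest.

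The regions with the most YY1 peaks were chr1:13553027-13558857 (5831 bp) and chr5:95165256-95171014 (5759 bp), with 6 each. The third was chr6:39269402-39274763 (5362 bp), with 5 YY1 peaks. In the region on chromosome 1 the YY1 peaks were 528, 342, 241, 617, 254 and 417 bp wide, and the first and the last reached past its edges. In the region on chromosome 5 all 6 lay inside, and the widest of them was 1206 bp. In the region on chromosome 6 the widths were 895, 338, 1450, 1224 and 311 bp, and again the first and the last crossed an edge. All 3 regions also met TEAD1, NR2F2 and RXRG, with 6 NR2F2 and 6 RXRG peaks in the one on chromosome 6, and SREBP1 met only that on chromosome 5.

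Where an acetylated region held 2 YY1 midpoints, these were a median 985 bp apart (quartiles 720 and 1392 bp, 2102 regions). They lay on both sides of the centre in 1808 of these regions (86.0%), and the pair spanned a median 50.2% of the region. With 3 or more midpoints, neighbours were a median 976.5 bp apart (207 regions). The median gap from the end of a YY1 peak to the start of the next was 458 bp with 2, far above the smallest gap in the list.

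YY1 sat towards the middle of acetylated regions. Position was measured for the 32048 YY1 peaks with their midpoint in H3K27ac, as the distance from the H3K27ac centre in percent of the way to the edge. The innermost 10% step held 19.3% of the midpoints and the outermost 2.57%, where an even spread would put 10% in each. The median was 29.8%, against 31.2% for NR2F2, 33.0% for TEAD1, 35.96% for RXRG and 42.1% for SREBP1. The YY1 median was lower than that of TEAD1 on 20 of 21 chromosomes, of RXRG on 20, of NR2F2 on 18 and of SREBP1 on 21. Position moved with YY1 width, from a median of 46.4% at 178 to 199 bp to 13.5% at 1500 bp and above. Since the lists differ in peak width, how far width sets their order here was not tested. The order changed with H3K27ac width. At 232 to 500 bp the median was 24.3% for NR2F2, 25.5% for RXRG and 27.5% for TEAD1, below the 28.3% of YY1. At 501 to 1000 bp NR2F2 stood at 26.2% and YY1 at 26.8%. YY1 was lowest at 1001 to 1500 bp, with 25.1%. At 2001 to 3000 bp TEAD1 stood at 34.6% and YY1 at 37.2%. No side was preferred, with 50.07% of YY1 midpoints to the left of the centre. A single YY1 midpoint lay at a median 26.4%, and midpoints that shared their region with another at 54.3%.

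The central placement of YY1 was strongest at 1001 to 1500 bp of H3K27ac width and weakened gradually in wider regions. The innermost 10% step held 21.2% of YY1 midpoints at 501 to 1000 bp and 23.2% at 1001 to 1500 bp. It held 18.4% at 1501 to 2000 bp, 13.98% at 2001 to 3000 bp and 12.6% at 3001 to 5000 bp. The outermost step held less in each of these wider classes, with 2.17%, 3.24% and 4.86%. The median went from 25.1% at 1001 to 1500 bp to 30.8% at 1501 to 2000 bp and 44.1% at 3001 to 5000 bp. In bp, the median distance from the centre was 100 bp at 501 to 1000 bp, 154.5 bp at 1001 to 1500 bp and 797 bp at 3001 to 5000 bp. The widest regions also held more than 1 YY1 peak more often. NR2F2 moved outwards at smaller widths, with a median of 35.2% at 1001 to 1500 bp, and RXRG stood at 36.7% there.

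**Figure D3:**
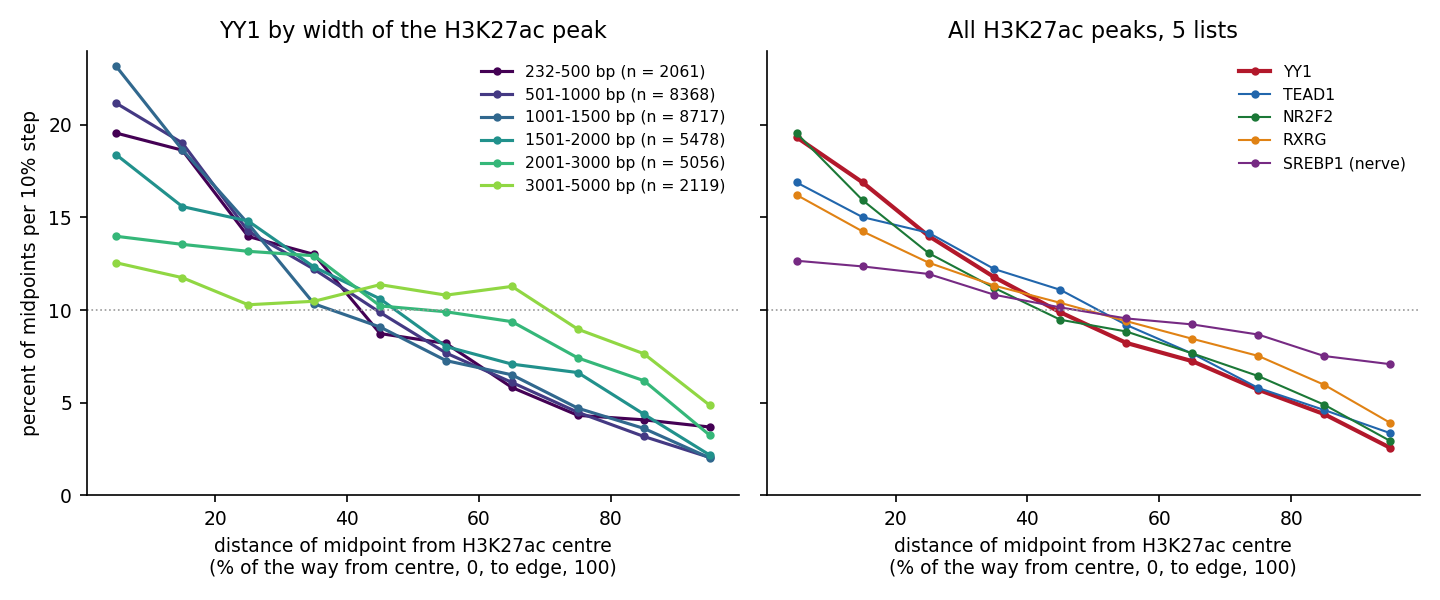
Percent of factor midpoints in each 10% step from the centre (0) to the edge (100) of the H3K27ac peak, for YY1 by H3K27ac width class (left) and for the 5 lists over all H3K27ac peaks (right); the dotted line marks 10%, an even spread. YY1 falls from 19.3% to 2.57% over all regions and is flattest in the 3001 to 5000 bp class.

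Most YY1 peaks lay in the acetylated region with their whole length. This was so for 25362 of them, 65.5% of the list (65.1 to 66.0%), and 8083 (20.9%) crossed an H3K27ac edge. Of those crossing, 6664 (82.4%) had over 50% of their length inside. Among the other lists, RXRG crossed an edge least (9.51%), then TEAD1 (15.5%), NR2F2 (23.0%) and SREBP1 (24.3%). These are shares of whole lists, which differ in peak width and in how many peaks meet H3K27ac. Of the peaks that met H3K27ac, an edge was crossed by 4557 of 22558 for RXRG and 4083 of 20182 for TEAD1. The counts were 9620 of 27352 for NR2F2, 7150 of 15103 for SREBP1 and 8083 of 33445 for YY1. In all, 87.2% of the length of the YY1 list was acetylated. YY1 peaks that bridged a pair of H3K27ac peaks numbered 2, both by necessity over 925 bp wide.

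Around the edge, YY1 fell off steeply. Counting midpoints per Mb of sequence at each distance from the nearest edge, and leaving out gaps over 1 Mb, the YY1 rate was 553 per Mb at 500 to 750 bp inside, 250 per Mb at 100 to 200 bp inside and 77.9 per Mb in the last 50 bp. Outside it was 50.2 per Mb in the first 100 bp, 6.01 per Mb at 500 to 1000 bp, 2.17 per Mb at 5000 to 10000 bp and 0.925 per Mb at 20000 to 50000 bp. Over all acetylated sequence the rate was 348 per Mb and over the gaps 2.50 per Mb. TEAD1 had a similar outer course, with 1.07 per Mb at 20000 to 50000 bp. NR2F2 and RXRG stayed at 4.45 and 7.02 per Mb there, after 6.78 and 13.3 per Mb at 500 to 1000 bp. The inner rates of NR2F2 and RXRG were highest at 200 to 300 bp from the edge (385 and 329 per Mb), and that of YY1 at 500 to 750 bp. These rates pool H3K27ac peaks of all widths, and only those above 1000 bp reach 500 bp inside. Classes near the edge include the narrow regions, where YY1 was rarer than NR2F2 (0.200 against 0.527 per kb at 232 to 500 bp). How far region width sets the inner course was not tested.

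**Figure D4:**
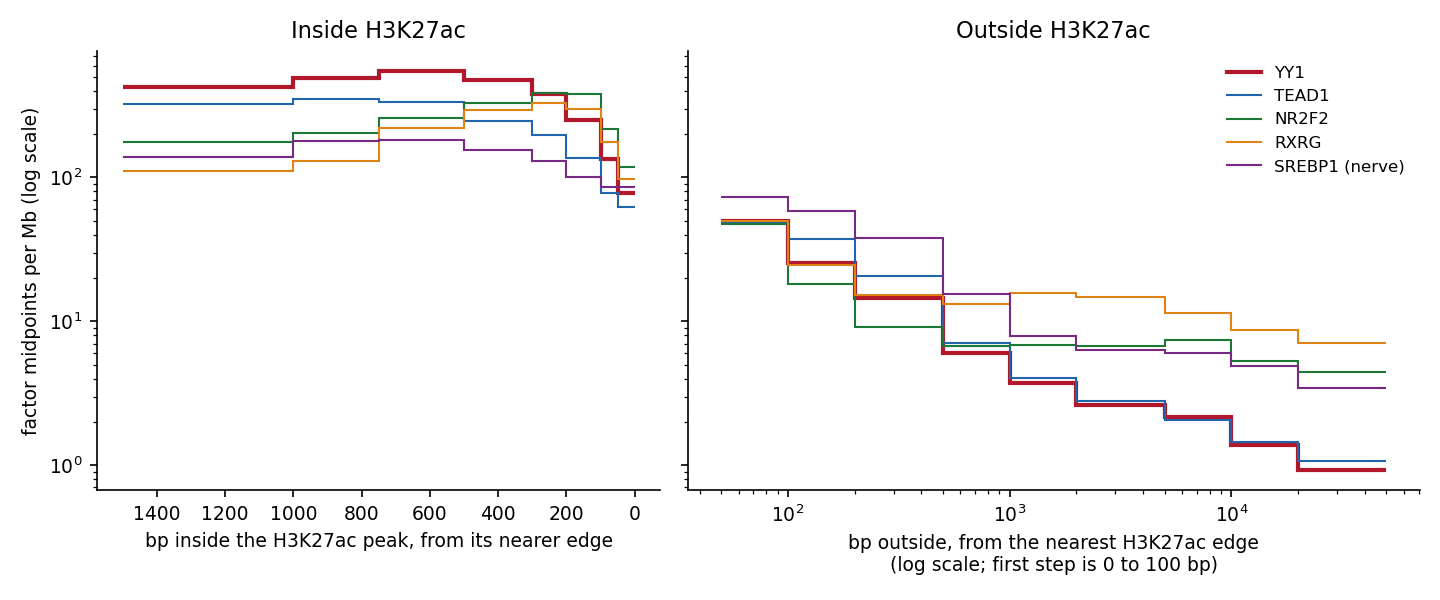
Factor midpoints per Mb of sequence (log axis) by distance in bp from the nearest H3K27ac edge, inside (left, centre of regions to the left) and outside (right, log axis); each step is 1 distance class. YY1 (thick red) goes from 553 per Mb inside to 0.925 per Mb at 20000 to 50000 bp outside, where NR2F2 and RXRG remain at 4.45 and 7.02 per Mb.

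The 5259 YY1 peaks outside H3K27ac lay close to it. The median distance from the end of the YY1 peak to the nearest H3K27ac edge was 3033 bp (quartiles 599.5 and 10497 bp), against 2379 bp for TEAD1, 5045 bp for SREBP1, 6889 bp for RXRG and 8827 bp for NR2F2. It was 1481.5 bp for the outside YY1 peaks wider than the median of the YY1 list. Within 1 kb lay 30.9% of them (29.7 to 32.2%), although only 7.28% of the sequence in gaps is that near to an edge. The share within 1 kb was 36.9% for TEAD1, 25.9% for SREBP1, 11.5% for RXRG and 10.6% for NR2F2. The YY1 median was below that of NR2F2 and RXRG on all 21 chromosomes and above that of TEAD1 on 20. Beyond 100 kb from any H3K27ac peak were 92 YY1 peaks (1.75%). The farthest was chr19:1850941-1851146 (206 bp), 371637 and 307129 bp from its neighbours, followed by chr10:100258745-100258937 (193 bp) and chrX:133037127-133037531 (405 bp), the last with an NR2F2 peak.

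Acetylated regions right beside an outside YY1 peak held YY1 of their own less often than H3K27ac peaks at large. For the 641 outside YY1 peaks within 200 bp, the nearest H3K27ac peak held another YY1 peak in 17.3% of cases, below the 30.9% of all H3K27ac peaks. The value was already 27.4% at 201 to 500 bp, then 28.8% at 501 to 1000 bp and 35.7% at 5001 to 20000 bp. YY1 peaks lie at least 179 bp apart in the list, and how far this sets the low value was not tested. The median width of those nearest H3K27ac peaks was 656 bp within 200 bp and 719 bp at 501 to 1000 bp, against 737 bp in the list. Near peaks were wider than far ones, with a median YY1 width of 262 bp within 200 bp and 226 bp at 5001 to 20000 bp. The widest outside YY1 peaks were chr1:146927813-146928801 (989 bp), 251 bp from H3K27ac, chr2:65041678-65042659 (982 bp), 67 bp from it, and chr1:62476604-62477566 (963 bp), 85 bp from it.

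**Figure D5:**
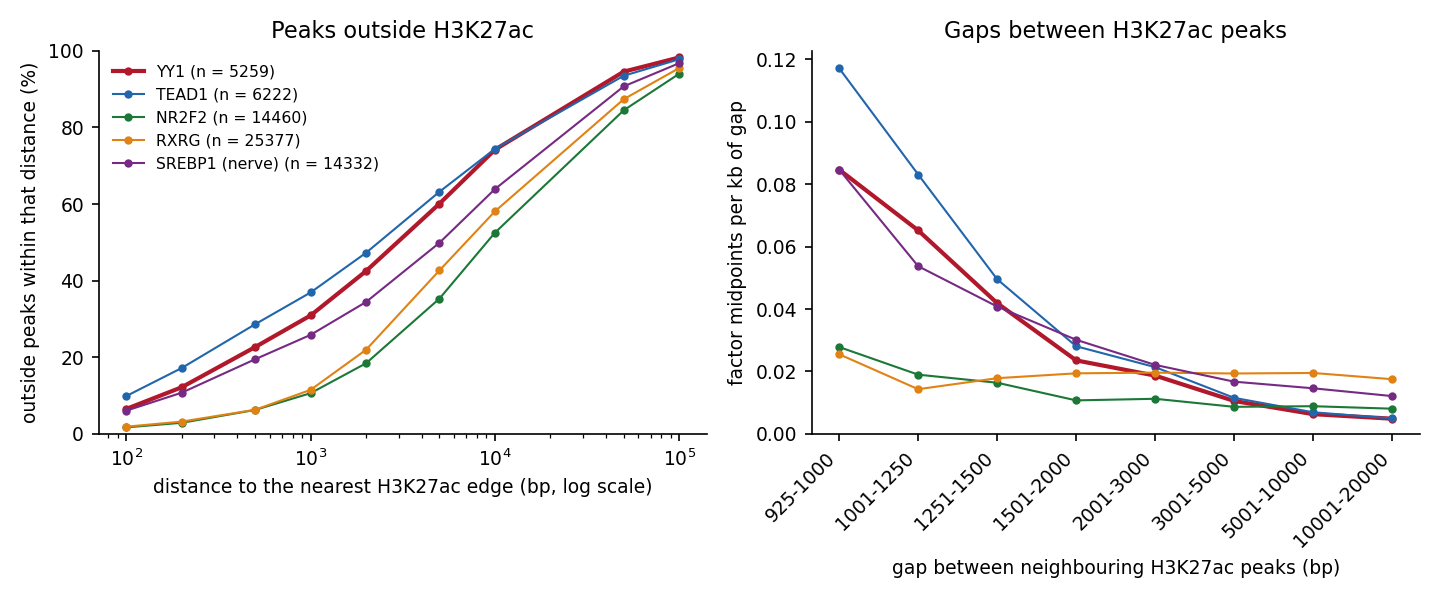
Percent of each list's outside peaks within a given distance of the nearest H3K27ac edge in bp (left, log axis), and factor midpoints per kb in gaps between neighbouring H3K27ac peaks by gap width in bp (right). YY1 and TEAD1 lie above the other lists on the left, and on the right YY1 falls from 0.0846 per kb in gaps of 925 to 1000 bp to 0.00487 per kb in gaps of 10001 to 20000 bp.

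Paired H3K27ac peaks on both sides of a YY1 peak were uncommon, yet more frequent than the length of such positions. H3K27ac lay within 1 kb on both sides of 200 outside YY1 peaks, 3.80% (3.30 to 4.36%), whereas such positions make up 0.192% of the sequence in gaps. The share was 0.951% within 500 bp and 7.05% within 2 kb, and 8.54% within 1 kb for YY1 peaks above the median width of the list. The share was 4.79% for TEAD1, 1.89% for SREBP1, 0.484% for NR2F2 and 0.319% for RXRG. These 200 YY1 peaks had a median width of 292.5 bp and lay in gaps of 925 to 2160 bp (median 1164 bp), with the nearer edge a median 218.5 bp away and the farther one 656.5 bp. In 73 of the 200 the farther edge was at most 2 times as far as the nearer. The count under an even placement in the gaps was not worked out, so no preference for the middle or a side is read from this. Neither of the flanking H3K27ac peaks held a further YY1 peak in 126 cases, 1 of them did in 61 and both did in 13. Over all gaps of 1001 to 1250 bp the shares were near these counts, with YY1 in neither flank in 59.98%, in 1 in 31.5% and in both in 8.48%. The widest such YY1 peaks were chr2:65041678-65042659 again, with H3K27ac 67 and 332 bp away, chr20:7145388-7146192 (805 bp), 74 and 168 bp away, and chr11:47367649-47368424 (776 bp), 407 and 231 bp away.

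Seen from the gaps, YY1 was most frequent per kb in the shortest ones. At least 1 bp of a YY1 peak lay in 148 of the 897 gaps of 925 to 1000 bp (16.5%, 14.1 to 19.1%), in 13.5% of those of 1001 to 1250 bp and in 10.04% of those of 1501 to 2000 bp. In the longer gaps of 10001 to 20000 bp the share was 13.6% again. Many of these are tails of peaks centred on a flanking region: a YY1 midpoint lay in 8.03% of gaps of 925 to 1000 bp and a whole YY1 peak in 4.01%. By whole peaks the gaps of 10001 to 20000 bp stood higher, at 5.39%. In gaps of 925 to 1000 bp the rate of YY1 midpoints was 0.0846 per kb. It was 0.00487 per kb in gaps of 10001 to 20000 bp and 0.393 per kb in H3K27ac peaks of 501 to 1000 bp. The rate in the shortest gaps was 0.117 per kb for TEAD1, 0.0846 for SREBP1, 0.0278 for NR2F2 and 0.0255 for RXRG. RXRG stayed between 0.0143 and 0.0255 per kb in all gap classes up to 20000 bp. All sequence in a short gap is near an edge, and how far this sets the rates was not tested.

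Acetylated regions with a close acetylated neighbour held YY1 less often than more isolated ones of the same width. Among H3K27ac peaks of 1001 to 1500 bp, 33.6% held YY1 when the nearest H3K27ac peak was 925 to 1499 bp away, 43.3% at 3000 to 5999 bp and 57.5% at 12000 to 29999 bp. Beyond 30000 bp it was 49.9%. At 501 to 1000 bp of width the values were 22.7%, 29.2%, 37.8% and 34.4%.

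Other factors met YY1 at different rates inside and outside acetylation. TEAD1 met 51.4% of the YY1 peaks that shared bases with H3K27ac and 30.6% of those outside, and it was the most frequent partner in both. Among YY1 peaks under 250 bp the TEAD1 shares were 23.1% and 18.9%, and NR2F2 was the more frequent partner in H3K27ac, at 28.3%. Over all YY1 widths, NR2F2 went from 42.7% to 13.6%, RXRG from 32.9% to 6.48% and nerve SREBP1 from 32.6% to 9.77%. Under 250 bp, NR2F2 went from 28.3% to 13.4% and RXRG from 20.9% to 6.77%. SREBP1 went from 11.1% to 6.90% there, a smaller difference than over all widths. Among outside YY1 peaks, TEAD1 met 45.3% within 1 kb of H3K27ac and 24.1% beyond, and SREBP1 15.99% and 6.99%. NR2F2 had the reverse order, 9.10% within 1 kb and 15.6% beyond, and RXRG 3.69% and 7.73%. Of the 200 YY1 peaks flanked on both sides, 129 met TEAD1 (64.5%, 57.4 to 71.1%), 36 met SREBP1, 15 NR2F2 and 5 RXRG. Over all YY1 peaks the shares were 48.6% for TEAD1, 38.7% for NR2F2, 29.5% for SREBP1 and 29.3% for RXRG. The flanked peaks were wider than all outside ones within 1 kb (median 292.5 against 251 bp) and were not split by width.

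YY1 width moved with these classes, so the narrow YY1 peaks under 250 bp were set side by side. Of these, TEAD1 met 31.0% of the 799 within 1 kb of H3K27ac (27.8 to 34.4%) and 14.5% of the 2214 beyond (13.1 to 16.03%). In the same narrow peaks NR2F2 met 7.76% within 1 kb and 15.4% beyond. Outside H3K27ac, both orders seen in all YY1 peaks were thus present among narrow ones. The order of TEAD1 between acetylated and near outside YY1 peaks was not: among narrow peaks it met 23.1% of those in H3K27ac, below the 31.0% of those within 1 kb. YY1 peaks that met none of the other lists made up 24.8% of all YY1 peaks. The share was 20.3% in H3K27ac, 41.9% outside within 1 kb and 58.5% farther away. Within acetylation, YY1 peaks in regions with 2 or more of them met SREBP1 less often than single ones (20.8% against 34.8%), and TEAD1 in 47.1% against 52.2%.

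Across chromosomes the share of YY1 in H3K27ac ran from 81.4% on chromosome 9 to 90.6% on chromosome 12, with a median of 86.4%. It was above the share of each of the other factor lists on all 21 chromosomes. Over whole lists those shares were 76.4% for TEAD1, 65.4% for NR2F2, 51.3% for SREBP1 and 47.1% for RXRG. YY1 peaks were also wider (median 439 bp) than those of NR2F2 (303 bp), TEAD1 (302 bp) and RXRG (184 bp), though not of SREBP1 (485 bp). How far peak width sets this order was not tested. The share of H3K27ac peaks holding YY1 ran from 26.96% on chromosome 9 to 35.8% on chromosome 8. The X chromosome had the narrowest YY1-holding regions, with a median of 982 bp, and the longest median distance of outside YY1 peaks, 5331 bp. Neither was particular to YY1, since the X chromosome also came first in both for each of the other factor lists. Its H3K27ac peaks without YY1 were the narrowest as well, with a median of 435.5 bp. Chromosomes of 1 library share its depth and its peak threshold, so that their spread is not an error between cultures.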

How the data were processed

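The values are peak positions in bp. The authors deposited 1 list per target on build rn5, per the submitters' processing notes, which name bcl2fastq 2.20.0.422, Bowtie2, MACS2, bedtools and deepTools without roles or settings. No source used here gives thresholds, controls, pooling or read depth. The score that the authors deposited with the SREBP1 list is 1 in every peak and was not used, and the other lists have none, so that width stood in for a stricter threshold. Mitochondrial peaks were dropped. Sharing meant at least 1 bp. Peaks to be named were the 3 leading ones of each kind: H3K27ac peaks with the most YY1 peaks, the widest without YY1, the widest YY1 peaks inside, outside and flanked, and the farthest. Members and tables were chosen with earlier results of these data known. Gene and promoter tables of another build were not used. The neighbourhood, width and co-binding classes were chosen after the data were seen. The scripts were tested on simulated data. Python 3.11.15, NumPy 2.4.6, pandas 2.3.3 and SciPy 1.17.1 were used.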

Additional observations from a re-analysis of the deposited data

Results flagged for a closer look

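The mitochondrial genome was left out of the comparisons but held 9 YY1 peaks, with a median width of 335 bp, and 2 H3K27ac peaks. Of the 9, 4 met an H3K27ac peak. TEAD1 had 9 mitochondrial peaks, NR2F2 13, RXRG 16 and SREBP1 0. No control list was used.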

How the results depend on the processing

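The 8 results were recomputed under 33 alternatives. The 2 width differences could have changed sign and did not, and the other results are shares, a distance or a position, which cannot. Of the 33 alternatives, 15 stayed within the interval of the reported value and 18 did not. That interval is a 95% interval except for the 2 width differences. For these it was set from the ends of the 95% intervals of the 2 medians, so it is not a 95% interval of the difference. With placed chromosomes only, all 8 values stayed, and they are among the 15, but this setting could hardly move them. All 38704 YY1 peaks lie on placed chromosomes, and only 164 of the 99514 H3K27ac peaks do not. The share of YY1 in H3K27ac was 83.2% with 50% of the shorter peak shared, 82.8% by midpoint, 89.5% with H3K27ac extended by 500 bp and 97.5% for YY1 wider than the median. The H3K27ac width difference of 676 bp became 697 bp by midpoint, 655 bp without the widest 1%, 751 bp for wider YY1 and 634 bp without the smallest H3K27ac peaks. That setting was 1 of 2 chosen after the data were seen. Regions with 2 or more YY1 peaks made up 7.57% after joining YY1 within 200 bp. The median position was 26.4% for single midpoints and 31.2% in H3K27ac of at least 1 kb. Outside YY1 wider than the list's median lay 1481.5 bp from H3K27ac, and 8.54% of them were flanked. The flanked share was 0.951% within 500 bp and 7.05% within 2 kb. YY1 met 12.1% of gaps of up to 2 kb, and 8.03% of gaps of up to 1 kb by midpoint. The YY1 width difference of 254 bp became 241 bp by midpoint. Gaps of up to 500 bp gave no value, since none exist in the list. No paired analysis was possible because there is a single library per target. How deeply each was sequenced is not known here, and what depth does to these values was not tested.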
